A study of Mus musculus with 27 samples.

Results

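The genes described here are 49 genes of the cell division cycle, read from colonic epithelium scrapings of mice that were given the dioxin TCDD at increasing doses. They were chosen by name as the count rows whose Ensembl identifiers map to the 49 symbols, out of 46078 gene rows in all, and they were kept in 3 roles: 21 replication members, 20 mitotic members and 8 members of cell cycle entry and checkpoint. Male C57BL/6 mice, 28 days old at the start and 56 days old at the end, received by oral gavage, every 4 days and 7 times in all, either sesame oil vehicle or TCDD in 1 of 8 doses that rose in near-equal log steps between 0.01 and 30 μg/kg. There were 3 mice in each of the 9 groups, 27 mice in all, and each mouse is a separate animal and 1 library. Every group shared the strain, the sex, the diet and the sesame oil, so vehicle and TCDD differed by label only in the dose. TCDD is a chlorinated dioxin that persists in the body and activates AhR, the aryl hydrocarbon receptor, which is a transcription factor.

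A dividing cell first commits to a new cycle under cyclin D and the E2F transcription factors, then loads and fires replication origins and copies its DNA, and then condenses and separates its chromosomes. Genes used for replication are switched on by E2F around the start of DNA synthesis, whereas genes used for mitosis are switched on later, through promoter elements named the cell cycle genes homology region (CHR) and the CCAAT box. In the colon, dividing cells lie in the lower part of the crypt, above and among the stem cells, and their descendants stop dividing as they move to the surface.

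Each library held 9305441 to 14371035 counts on genes (median 11651026), and all 49 members passed the filter on low counts together with 16496 genes tested. The epithelial label held: Epcam, an epithelial adhesion protein, lay between 914 and 945 CPM (counts scaled to a common library size) in vehicle-treated mice. The exposure label held as well, since Cyp1a1, the AhR target gene used as a marker of dioxin exposure, lay between 0 and 0.0984 CPM in vehicle-treated mice and between 2070 and 2430 CPM at 30 μg/kg. The barcodes in the library names repeat across mice, so the libraries formed at least 2 index sets, 1 with 16 mice and 1 with 11 mice. All mice given vehicle to 0.3 μg/kg were put in the first set and all mice given 3, 10 or 30 μg/kg in the second, with the mice of 1 μg/kg in both. The barcodes of 5 mice occur once (mouse 28 at 0.1 μg/kg, all 3 mice at 0.3 μg/kg and mouse 41 at 1 μg/kg), so these were placed in the first set by their numbers alone. For 30 μg/kg against vehicle, dose and index set therefore change together, and they are separated only by the inferred place of mouse 41, whereas 30 against 3 μg/kg lies within 1 set.

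Promoter sequences are shown first for mitotic and replication members on which the results turn, because the windows of these 2 roles hold different known elements. RefSeq promoter windows of 300 bases (250 before to 50 after the start, GRCm38.p6) were found for 38 of the 49 members. Ccnd1 and Wee1, the 2 members called higher at 30 μg/kg, are not among them, so their promoters were not read. The stretches shown lie between positions -192 and 24 relative to the RefSeq start, that is in the proximal promoter and the first transcribed bases. In the 4 mitotic stretches the capitals mark a CHR (TTTGAA or TTCGAA, either strand) and a CCAAT box (CCAAT, either strand).
Mki67 (chr7:135716468-135716571, minus strand): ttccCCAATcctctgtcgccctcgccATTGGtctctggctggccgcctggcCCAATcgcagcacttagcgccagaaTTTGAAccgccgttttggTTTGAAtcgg
Cenpf (chr1:189688075-189688222, minus strand): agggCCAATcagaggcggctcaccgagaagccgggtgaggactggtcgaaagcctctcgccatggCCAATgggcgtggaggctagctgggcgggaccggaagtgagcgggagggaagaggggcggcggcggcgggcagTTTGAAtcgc
Bub1 (chr2:127831836-127831931, minus strand): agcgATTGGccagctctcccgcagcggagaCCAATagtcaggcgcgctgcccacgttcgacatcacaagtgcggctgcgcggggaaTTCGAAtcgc
Kif11 (chr19:37376333-37376372, plus strand): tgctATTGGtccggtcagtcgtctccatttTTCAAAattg
These are the mitotic members that were called at 30 μg/kg and hold a CHR. The fifth called mitotic member, Cenpe, held a CCAAT box and no CHR in its window.

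The 3 replication stretches are those of named replication members with an E2F site in the window, and there the capitals mark an E2F site (TTTCCCGC, TTTGGCGC, TTTCGCGC or TTTGCCGC, either strand) and a CCAAT box.
Mcm5 (chr8:75109352-75109523, plus strand): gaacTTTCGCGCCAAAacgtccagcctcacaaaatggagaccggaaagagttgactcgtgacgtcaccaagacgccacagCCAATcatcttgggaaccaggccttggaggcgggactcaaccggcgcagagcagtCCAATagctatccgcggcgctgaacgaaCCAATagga
Pola1 (chrX:93632184-93632297, minus strand): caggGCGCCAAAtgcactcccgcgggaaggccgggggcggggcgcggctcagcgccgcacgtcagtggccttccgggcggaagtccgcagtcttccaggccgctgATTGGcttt
Cdc6 (chr11:98908009-98908024, plus strand): gagaGCGGGAAAtcgc
In Mcm5 a pair of E2F sites overlaps. Cdc6 has no CCAAT box in its window.

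An E2F site was found in 8 of 17 replication windows (47.1%) and in 1 of 16 mitotic windows (6.25%), against 2.6% of the 27025 genes of the promoter table. A CHR was found in 13 of 16 mitotic windows (81.2%) and in 4 of 17 replication windows (23.5%), against 21.7% of all genes. CCAAT boxes were found in 15 of 16 mitotic windows (93.8%) and 12 of 17 replication windows (70.6%), against 41.1% of all genes. The core of the dioxin response element (GCGTG, either strand), the site that AhR binds, was in 11 of 16 mitotic windows (68.8%) and 7 of 17 replication windows (41.2%), against 35.2% of all genes. The E-box CACGTG, which clock factors bind, was in 1 window of each of these 2 roles, against 8.09% of all genes. Of the 5 entry and checkpoint windows found, 4 (80%) held the core of the dioxin response element and 0 the E-box. These are matches of letters in a window and are not shown to be occupied. Among the members, 1 match of one motif overlapped a match of another.

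At 30 μg/kg, 5 mitotic members were lower than in vehicle-treated mice, no replication member was called, and 2 entry and checkpoint members were higher. A gene was called when its adjusted p was under 0.05 over all genes tested and its fold change at least 1.5, in the quasi-likelihood test of edgeR, adjusted by Benjamini-Hochberg. By this rule 7 of 49 members (14.3%) were called, against 6.16% of all genes. The 5 lower ones were the mitotic members Cenpe, Cenpf, Mki67, Bub1 and Kif11, 5 of 20 mitotic members (25%) against 3.21% of all genes called lower. The 2 higher ones were Ccnd1 and Wee1, 2 of 8 entry and checkpoint members against 2.95% of all genes called higher. Of the 21 replication members 0 were called by edgeR, 3 had an unadjusted p under 0.05 (27% of all genes did), and DESeq2 called 1 (Pola1) and limma voom 0. Limma voom's posterior probability also called 0 of the 20 mitotic members, as did edgeR's test with a term for the index set; the first left Ccnd1 and Wee1 called and the second Wee1. The median log2 fold change was -0.35 over the mitotic members (range -1.36 to -0.07), -0.06 over the replication members (range -0.98 to 0.58), 0.09 over the entry and checkpoint members and 0.00 over all genes tested.

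**Figure D1:**
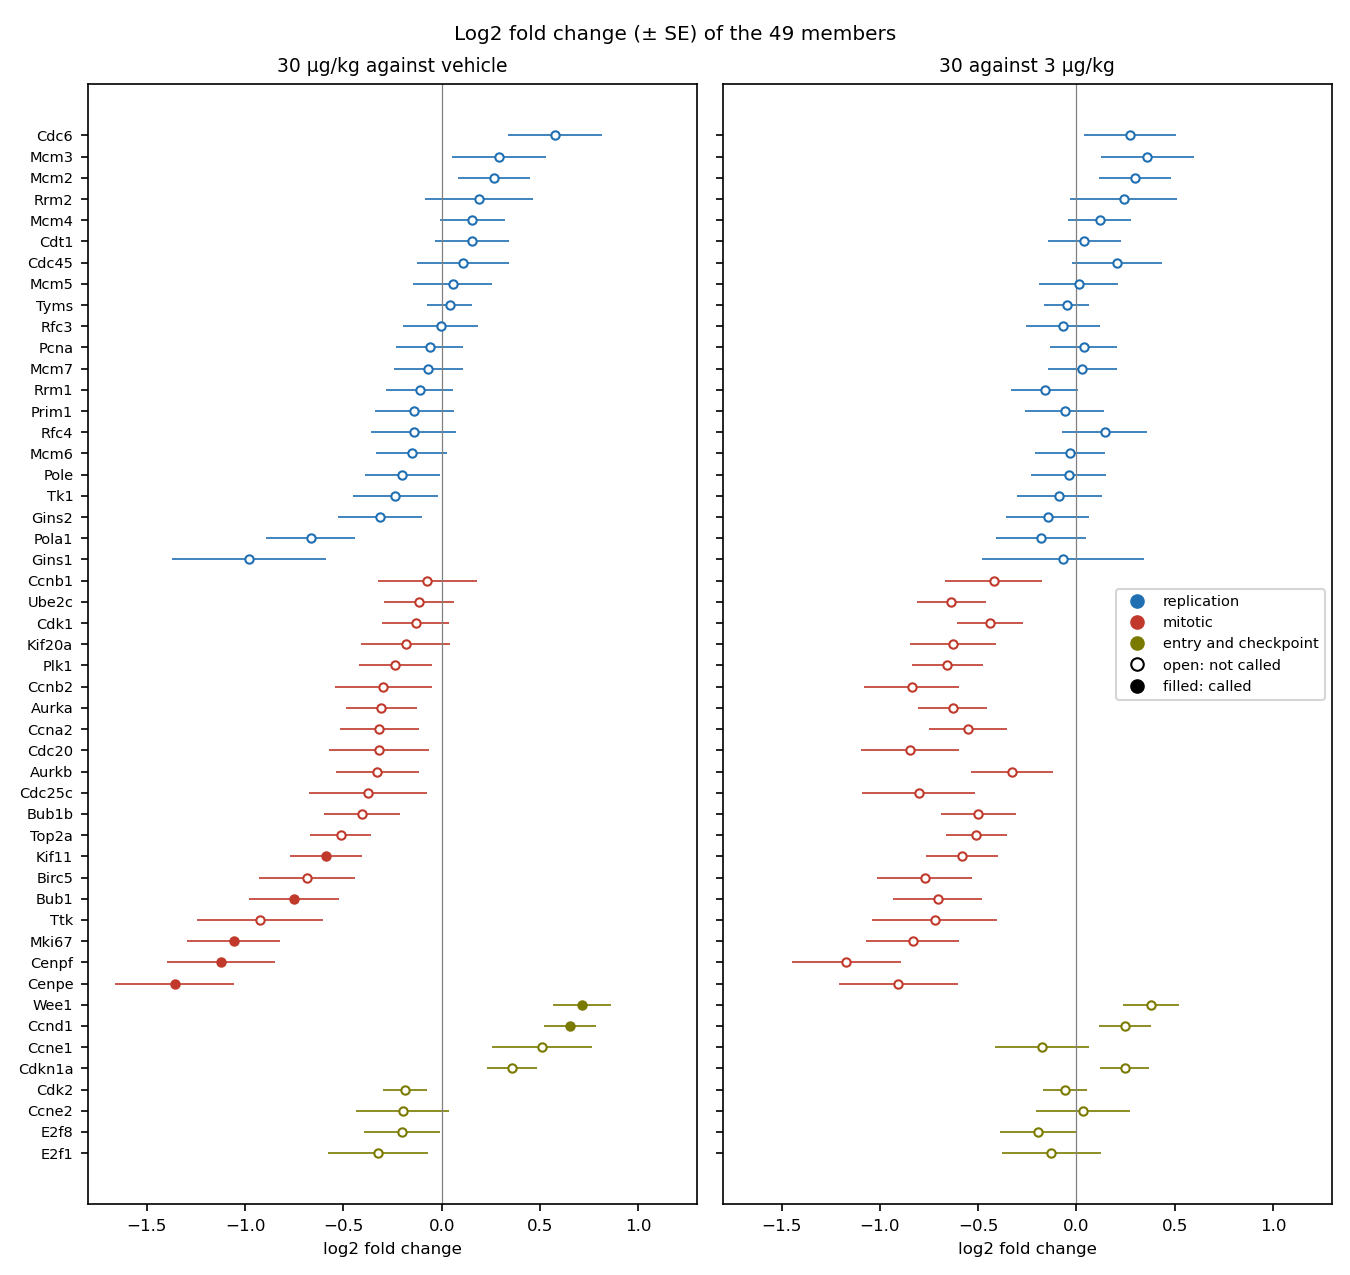
Log2 fold change ± SE (x axis) of each of the 49 members (y axis) at 30 μg/kg against vehicle (left) and at 30 against 3 μg/kg (right), 3 mice against 3, coloured by role, with filled points for called members. All 20 mitotic members lie left of 0 in both panels, while the replication members lie on both sides of 0.

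Mki67 encodes Ki-67, the protein that coats mitotic chromosomes and marks dividing cells in tissue sections, and it lies at chr7:135689784-135716361 (GRCm38, GENCODE M21). It was at 209, 182 and 232 CPM in the 3 vehicle-treated mice, 163, 187 and 317 in the 0.01 μg/kg group, 229, 224 and 247 in the 0.03 μg/kg group and 305, 152 and 272 in the 0.1 μg/kg group. It was then at 121, 204 and 221 CPM in the 0.3 μg/kg group, 140, 125 and 170 in the 1 μg/kg group, 155, 193 and 185 in the 3 μg/kg group, 139, 136 and 148 in the 10 μg/kg group and 115, 85.1 and 99 in the 30 μg/kg group. All 3 mice at 10 μg/kg and all 3 at 30 μg/kg were below every vehicle-treated mouse, and mice of 1 group differed most at 0.01 and 0.1 μg/kg. At 30 μg/kg Mki67 was 2.08 times lower than in vehicle (log2 fold change -1.06 ± 0.24 SE, adjusted p = 0.00644, edgeR's quasi-likelihood test). Without any 1 of the 6 mice compared it was called, with log2 fold changes of -1.17 to -0.96. It was not called with a term for the index set (log2 fold change -1.13, adjusted p = 0.14, edgeR's quasi-likelihood test) or by limma voom's posterior probability.

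Cenpe and Cenpf are kinetochore proteins, a motor that carries chromosomes to the spindle equator and a large coiled-coil protein of the outer kinetochore. Cenpe (chr3:135212537-135273611) was at 33.8, 25.8 and 32.7 CPM in vehicle-treated mice, 19.5, 23.9 and 24 in the 3 μg/kg group, 17.7, 19.9 and 18.5 in the 10 μg/kg group and 12.8, 11.5 and 11.6 in the 30 μg/kg group. The mice at each of these 3 doses were all below every vehicle-treated mouse, and those at 30 μg/kg were all below those at 10 μg/kg. It was 2.56 times lower at 30 μg/kg (log2 fold change -1.36 ± 0.30 SE, adjusted p = 0.0062, edgeR's quasi-likelihood test). Cenpf (chr1:189640606-189688086) was at 39.7, 30.8 and 40 CPM in vehicle-treated mice, 33.7, 39.4 and 40.9 in the 3 μg/kg group, 26.5, 26 and 29 in the 10 μg/kg group and 16.9, 17.2 and 16.6 in the 30 μg/kg group. Cenpf at 3 μg/kg overlapped vehicle, unlike Cenpe, and at 30 μg/kg it was 2.18 times lower (log2 fold change -1.12 ± 0.28 SE, adjusted p = 0.0122, edgeR's quasi-likelihood test). Both genes were lowest in the libraries at 30 μg/kg, but at 0.01 μg/kg mouse 9 had 15.2 CPM of Cenpe and 26.1 of Cenpf and mouse 14 had 45.7 and 71.9, a wider spread than between the groups just named.

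Bub1, a kinase of the spindle assembly checkpoint, was at 8.86, 9.07 and 10.6 CPM in vehicle-treated mice, 9.56, 9 and 9.07 in the 3 μg/kg group and 6.04, 5.35 and 5.52 in the 30 μg/kg group. Kif11, the kinesin that pushes spindle poles apart, was at 34.1, 30.9 and 32.2 CPM in vehicle-treated mice, 30.8, 33.1 and 32.7 in the 3 μg/kg group and 24.7, 20.7 and 19.1 in the 30 μg/kg group. For both genes the groups at 30 μg/kg and vehicle did not overlap, and the group at 3 μg/kg lay at the level of vehicle. Bub1 was 1.68 times lower at 30 μg/kg (log2 fold change -0.75 ± 0.23 SE, adjusted p = 0.0362) and Kif11 1.51 times lower (log2 fold change -0.59 ± 0.18 SE, adjusted p = 0.0393), both by edgeR's quasi-likelihood test. These are the weakest of the 7 calls: Bub1 was no longer called without any 1 of the 6 mice (adjusted p of 0.0532 to 0.122), and Kif11 was no longer called in 5 of those 6 fits.

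Top2a, the topoisomerase that untangles sister chromatids, was at 109, 117 and 121 CPM in vehicle-treated mice, 114, 122 and 111 in the 3 μg/kg group and 77.1, 91.6 and 74.8 in the 30 μg/kg group. All 3 mice at 30 μg/kg were below every vehicle-treated mouse. The fold change fell short of the threshold of 1.5, being 1.43 times lower (log2 fold change -0.51 ± 0.15 SE, adjusted p = 0.0336, edgeR's quasi-likelihood test).

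Ccnb1 and Cdk1, the cyclin B and kinase whose complex drives entry into mitosis, overlapped vehicle at 30 μg/kg. Ccnb1 was at 11.3, 11.1 and 8.93 CPM in vehicle-treated mice and 8.05, 13.2 and 8.53 in the 30 μg/kg group (log2 fold change -0.07, 95% interval -0.57 to 0.42). Cdk1 was at 12.9, 13.1 and 13.7 CPM in vehicle-treated mice and 10.9, 14.8 and 10.5 in the 30 μg/kg group (log2 fold change -0.13, 95% interval -0.47 to 0.20). In both genes mouse 66 was the highest of the 3 mice at 30 μg/kg and above every vehicle-treated mouse. The log2 fold change of Ccnb1 without mouse 66 was -0.33. The other mitotic members, not called, ran from Ttk, a spindle checkpoint kinase (log2 fold change -0.92, adjusted p = 0.0637), and Birc5, a subunit of the chromosomal passenger complex (-0.68, adjusted p = 0.0713), both by edgeR's quasi-likelihood test, to Plk1, a mitotic kinase (-0.24), and Ube2c, which ubiquitinates cyclin B (-0.12).

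By levels alone, 10 of 20 mitotic members had all 3 mice at 30 μg/kg below every vehicle-treated mouse (Mki67, Top2a, Ccna2, Bub1, Bub1b, Ttk, Birc5, Cenpe, Cenpf and Kif11), against 15.2% of all genes, and 0 had all 3 above, against 14.5% of all genes. Of the 21 replication members 2 were all below (Gins1 and Pola1) and 1 all above (Mcm4). Of the 8 entry and checkpoint members 4 were all above (Ccne1, Ccnd1, Wee1 and Cdkn1a) and 1 all below (Cdk2).

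**Figure D2:**
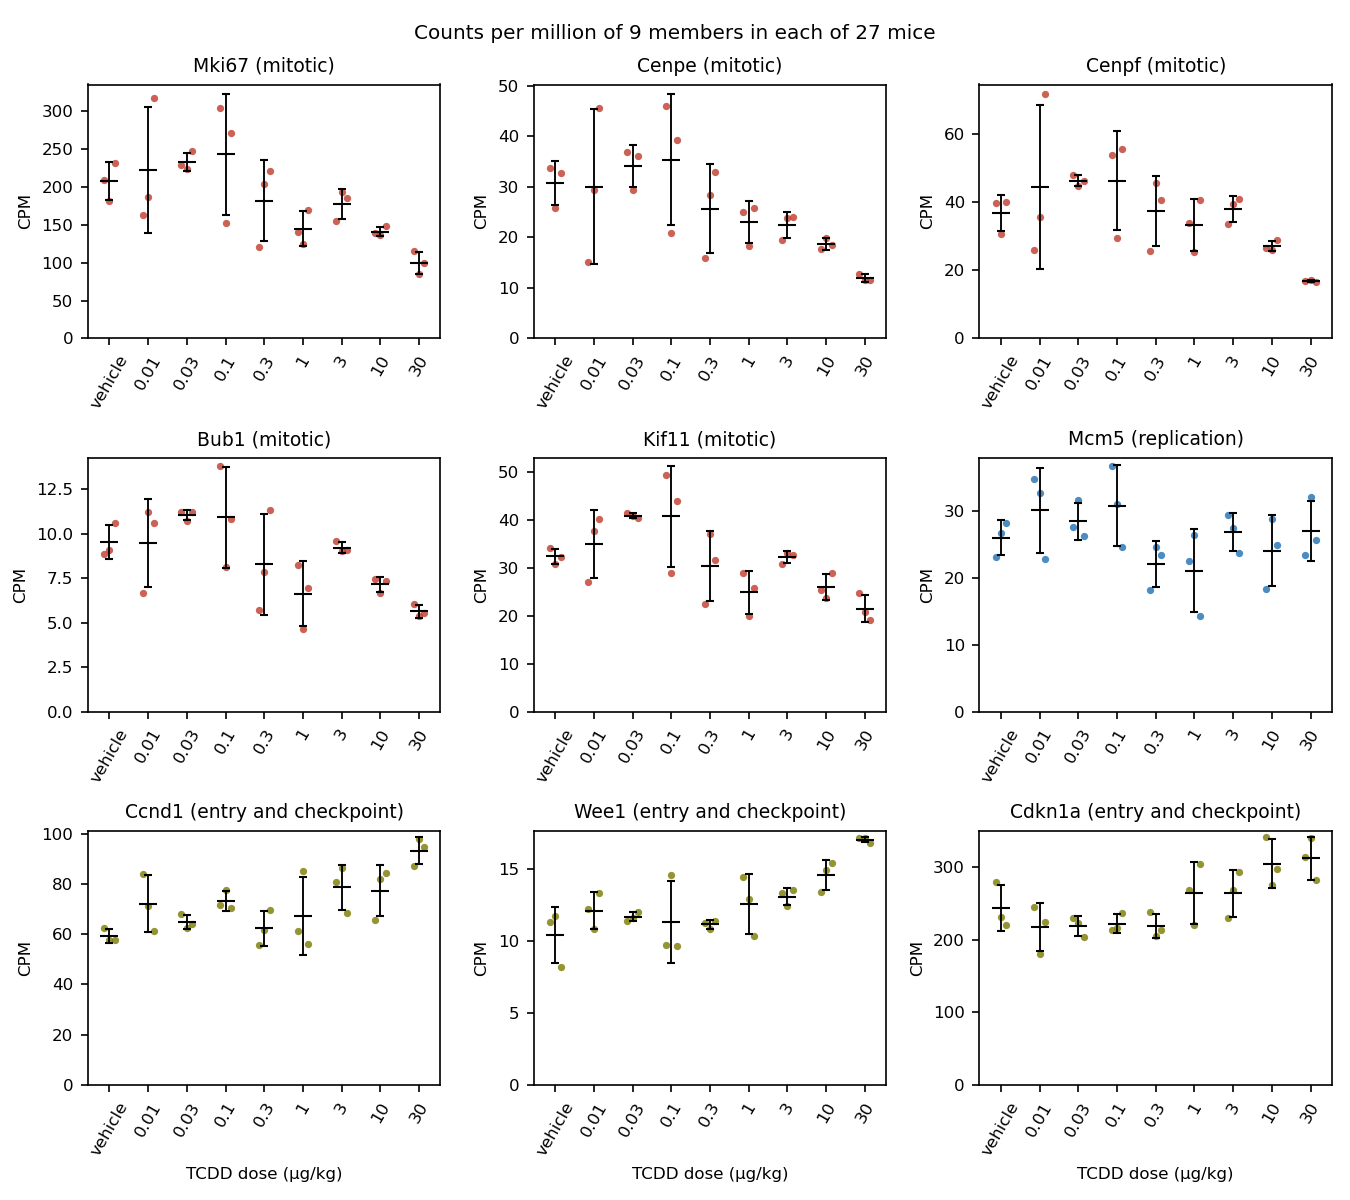
CPM (y axis, from 0) of 9 members in each of the 27 mice (points) by TCDD dose (x axis), with the mean and SD of the 3 mice in black. Mki67, Cenpe, Cenpf, Bub1 and Kif11 are lowest on average at 30 μg/kg, Mcm5 has no such step, and Ccnd1 and Wee1 are highest at 30 μg/kg.

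Among the replication members, Pcna, the sliding clamp of the replicative polymerases, was at 21.6, 24.7 and 25.2 CPM in vehicle-treated mice and 21.4, 24.3 and 22.9 in the 30 μg/kg group (log2 fold change -0.06, 95% interval -0.39 to 0.27). Mcm5, a subunit of the replicative helicase, was at 23.1, 26.6 and 28.2 CPM in vehicle-treated mice and 23.3, 32 and 25.6 in the 30 μg/kg group (log2 fold change 0.05, 95% interval -0.34 to 0.45). Mcm2, another subunit, was at 21.5, 18.7 and 25.3 CPM in vehicle-treated mice and 24.2, 31.4 and 23.3 in the 30 μg/kg group (log2 fold change 0.27, 95% interval -0.10 to 0.63). In all 3 genes the groups overlapped and mouse 66 was the highest at 30 μg/kg. The intervals of Pcna and Mcm5 leave out a fall of the size seen in Mki67.

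Cdc6, which loads the helicase onto origins, had the largest positive value among replication members. It was at 4.92, 5.06 and 6.68 CPM in vehicle-treated mice and 7.48, 10.8 and 6.64 in the 30 μg/kg group, with 2 of 3 mice above every vehicle-treated mouse (log2 fold change 0.58 ± 0.24 SE, adjusted p = 0.121, edgeR's quasi-likelihood test). Without mouse 66, the highest, its log2 fold change was 0.35. Gins1, a subunit of the GINS complex that joins the helicase to the polymerase, was at 1.97, 2.85 and 1.96 CPM in vehicle-treated mice and 0.575, 1.51 and 1.38 in the 30 μg/kg group. It is the member with the fewest counts, 7 to 30 per mouse, and its log2 fold change was -0.98 ± 0.39 SE (adjusted p = 0.107, edgeR's quasi-likelihood test), or -0.64 without mouse 65, the lowest. Pola1, the catalytic subunit of the primase-linked polymerase alpha, was at 17.8, 18.1 and 19.8 CPM in vehicle-treated mice, 11.8, 12.4 and 15.5 in the 3 μg/kg group, 10.5, 9.42 and 15.4 in the 10 μg/kg group and 11.9, 9.28 and 14 in the 30 μg/kg group. All 9 mice of these 3 doses were below every vehicle-treated mouse, and for 30 μg/kg the log2 fold change was -0.67 ± 0.23 SE (adjusted p = 0.0586, edgeR's quasi-likelihood test). At 3 μg/kg its log2 fold change against vehicle was -0.49 and at 10 μg/kg -0.65.

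Among the entry and checkpoint members, Ccnd1 encodes cyclin D1, which carries growth signals into the cycle. It was at 62.5, 57.7 and 57.8 CPM in vehicle-treated mice, 80.9, 86.2 and 68.5 in the 3 μg/kg group, 65.5, 82 and 84.2 in the 10 μg/kg group and 87.2, 97.8 and 94.7 in the 30 μg/kg group. Every mouse at 3, 10 and 30 μg/kg was above every vehicle-treated mouse, and so were all 3 mice at 0.1 μg/kg (71.5, 77.7 and 70.5 CPM) and 2 of 3 at 0.01 μg/kg (84, 71.2 and 61.2 CPM). Ccnd1 was 1.57-fold higher at 30 μg/kg (log2 fold change 0.65 ± 0.13 SE, adjusted p = 0.00331, edgeR's quasi-likelihood test). It lost this call once the index set was in the model (log2 fold change 0.45, adjusted p = 0.296, same test).

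Wee1 encodes the kinase that holds CDK1 inactive before mitosis, and its transcription is known to be under the circadian clock in liver. It was at 11.3, 11.7 and 8.15 CPM in vehicle-treated mice, 13.3, 12.4 and 13.5 in the 3 μg/kg group, 13.4, 14.9 and 15.4 in the 10 μg/kg group and 17.1, 17.1 and 16.8 in the 30 μg/kg group. The mice at 30 μg/kg were above all mice of these other groups, and Wee1 was 1.64-fold higher than in vehicle (log2 fold change 0.71 ± 0.15 SE, adjusted p = 0.00356, edgeR's quasi-likelihood test). Without vehicle mouse 4, the lowest, its log2 fold change was 0.57 and below the fold threshold.

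Cdkn1a encodes p21, the inhibitor of cyclin-dependent kinases, and per kilobase of exon it was the most abundant of the members named here (70.9 CPM per kb over all mice, against 18.2 for Mki67, 15.3 for Ccnd1, 12.7 for Top2a, 9.53 for Pcna and 1.01 for Gins1). It was at 280, 231 and 221 CPM in vehicle-treated mice, 342, 276 and 298 in the 10 μg/kg group and 315, 341 and 282 in the 30 μg/kg group. The groups at 30 μg/kg and vehicle did not overlap, but the margin was narrow (282 against 280 CPM) and it was not called (log2 fold change 0.36 ± 0.13 SE, adjusted p = 0.0678, edgeR's quasi-likelihood test). E2f1, a transcription factor of S-phase entry, was at 4.62, 6.85 and 5.6 CPM in vehicle-treated mice and 4.46, 5.35 and 3.79 in the 30 μg/kg group, with overlapping groups (log2 fold change -0.32, 95% interval -0.82 to 0.17).

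Below 30 μg/kg no member was called at any dose by edgeR's quasi-likelihood test, DESeq2 or limma voom in fits of all mice. The share of all genes called was 0% for each dose up to 0.3 μg/kg, 0.2% for 1 μg/kg, 0.697% for 3 μg/kg and 1.78% for 10 μg/kg. The members with an unadjusted p under 0.05 numbered 5 (0.01 μg/kg), 5 at 0.03, 9 at 0.1, 0 at 0.3, 10 at 1, 9 at 3 and 13 at 10 μg/kg, whereas the shares of all genes with such a p were 6.35%, 4.64%, 6.37%, 5.19%, 9.8%, 16% and 17.8%. In a fit of the mice at 10 μg/kg and vehicle alone, Cenpe was called. The median log2 fold change of the mitotic members was 0.26, 0.34 and 0.34 at 0.01, 0.03 and 0.1 μg/kg, -0.02 at 0.3, -0.13 at 1, 0.16 at 3, -0.28 at 10 and -0.35 at 30 μg/kg. All 20 mitotic members were above vehicle in log2 fold change at 0.03 and at 0.1 μg/kg, and all 20 were below at 30 μg/kg. The replication members had medians of 0.14, 0.12 and 0.17 at the lowest 3 doses, -0.24 at 0.3, -0.37 at 1, -0.08 at 3, -0.18 at 10 and -0.06 at 30 μg/kg. Their lowest median was thus at 1 μg/kg, where all 21 were below vehicle in log2 fold change and 6 had an unadjusted p under 0.05. All of these comparisons share the 3 vehicle-treated mice.

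**Figure D3:**
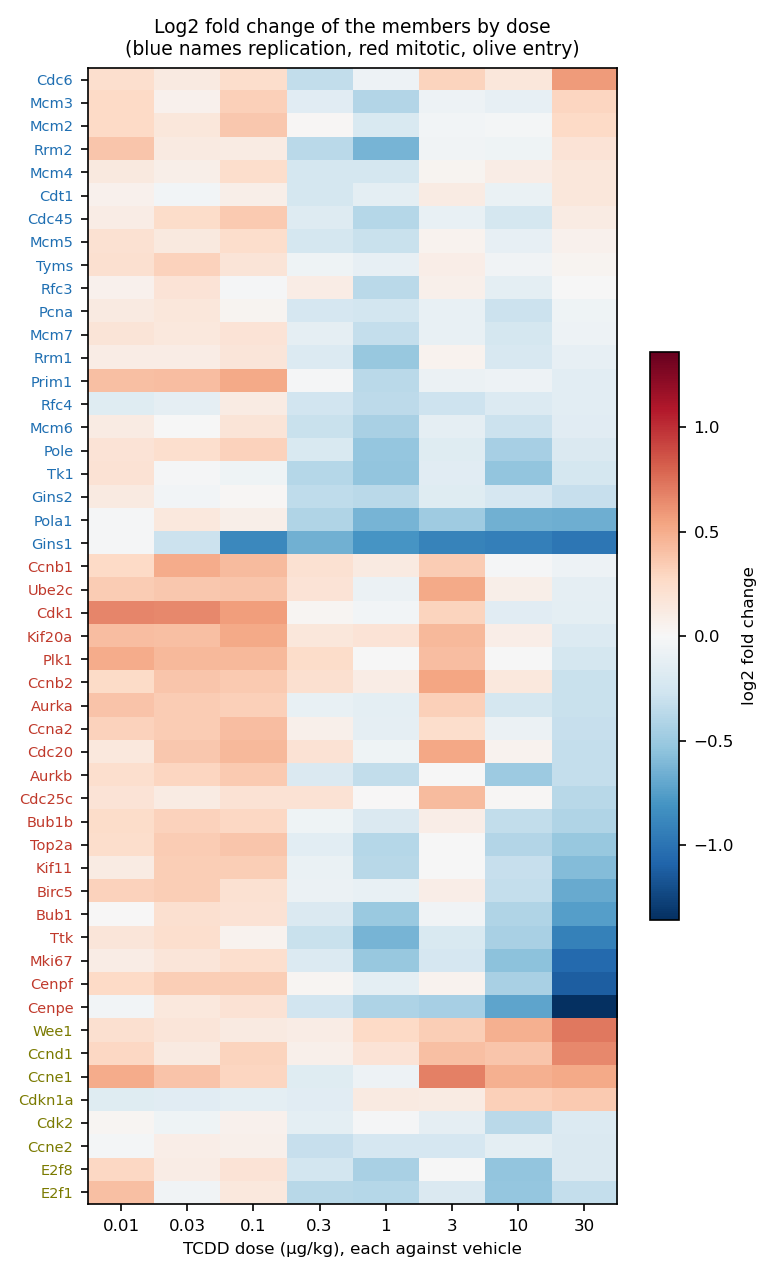
Log2 fold change against vehicle (colour, red higher and blue lower) of the 49 members (rows, by role) at each of the 8 doses of TCDD (columns). Mitotic members are red at 0.03 and 0.1 μg/kg and blue at 30 μg/kg, and replication members are blue at 1 μg/kg.

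Over the whole dose series, the slope per dose step (vehicle 0, then 1 to 8) had an adjusted p under 0.05 for 23 of 49 members (46.9%) by edgeR's quasi-likelihood test, against 23.4% of all genes. A falling slope was called for 12 of 20 mitotic members and 5 of 21 replication members, against 11.6% of all genes. The replication members with a falling slope were Gins1, Pola1, Pole, Tk1 and Prim1, that is polymerase, primase and helicase partner subunits and the salvage enzyme thymidine kinase, and none of the 6 helicase subunits (Mcm2 to Mcm7) was among them in this fit. The slopes of Mcm6 and Mcm7 were called as falling without mouse 66 and with the smooth muscle and stroma score as a covariate. E2f1, E2f8 and Cdk2 also had a falling slope, and Ccnd1, Wee1 and Cdkn1a a rising one, against 11.8% of all genes called higher. The steepest slopes were those of Cenpe (-0.15 ± 0.03 SE log2 per step, adjusted p = 0.000527) and Gins1 (-0.13 ± 0.03 SE, adjusted p = 0.00377). With a term for the index set 0 slopes were called, although some were about as steep as before (0.07 for Wee1, -0.154 for Gins1, -0.10 for Pola1 and Mki67) and others less so (-0.04 for Top2a and Kif11, -0.02 for Cdk1). From vehicle to 3 μg/kg alone only those of Gins1 and Pola1 were called.

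The mean log2 CPM of the mitotic members and of the replication members was set side by side within each mouse, so that library size drops out of the difference. Mitotic minus replication was 0.59, 0.42 and 0.46 in the vehicle-treated mice, 0.63, 0.91 and 0.71 in the 3 μg/kg group, 0.71, 0.36 and 0.42 in the 10 μg/kg group and 0.19, 0.01 and -0.08 in the 30 μg/kg group. All 3 mice at 30 μg/kg were below every mouse of these other 3 groups. Outside them, mouse 43 at 1 μg/kg (0.11) lay inside the range of 30 μg/kg and mouse 9 at 0.01 μg/kg (0.20) at its edge, while mouse 14 at 0.01 μg/kg (1.14) was the highest of all. Each of these mice also stood apart in other genes. Mouse 14 had a clock score (rising clock genes minus falling ones, as mean log2 CPM) of 1.45, against -2.82 and -2.1 in the other mice of its group. In mouse 9 genes of differentiated colonocytes summed to 11470 CPM, against 8407 and 8429 in mice 11 and 14. Mouse 43 had a low level of smooth muscle and stroma genes (mean log2 CPM 2.22). Mouse 44 of the same group had a lower one (2.02) but a difference of 0.996. At 30 μg/kg mouse 66 had the highest mean of both roles. Its replication mean was 4.00, against 3.55 and 3.74, and its mitotic mean 4.02, against 3.74 and 3.66. It also had the lowest level of smooth muscle and stroma genes in its group (3.74, against 5.14 and 5.8).

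**Figure D4:**
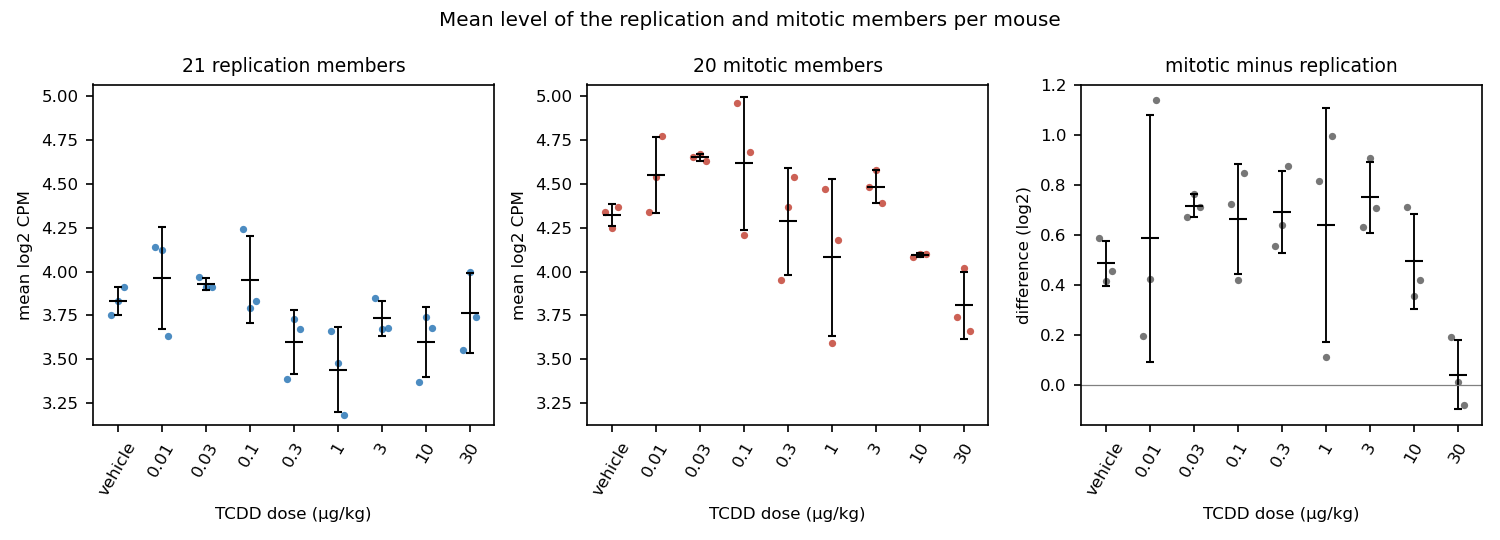
Mean log2 CPM of the 21 replication members (left) and of the 20 mitotic members (middle), and their difference (right), for each of the 27 mice (points) by TCDD dose, with the mean and SD of the 3 mice in black. At 30 μg/kg the mitotic mean is lowest on average while the replication mean stays in the range of the other groups, and the difference drops to between -0.08 and 0.19.

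Within the second index set, the comparison of 30 with 3 μg/kg called 0 of 49 members by edgeR's quasi-likelihood test, against 0.461% of all genes, although 19 members had an unadjusted p under 0.05, against 11% of all genes. Of these, 18 were mitotic members and 0 replication members. All 20 mitotic members were lower at 30 than at 3 μg/kg in log2 fold change, with median -0.65 (range -1.17 to -0.33), and the replication members had a median of 0.01. Cenpf was nearest to the threshold (log2 fold change -1.17 ± 0.28 SE, adjusted p = 0.0502, edgeR's quasi-likelihood test), and the values of Mki67 were -0.83 ± 0.24 SE and of Cenpe -0.91 ± 0.30 SE. Cdc20, the activator of the anaphase-promoting complex, and Plk1 were further below 3 μg/kg (-0.85 and -0.66) than below vehicle (-0.32 and -0.24). DESeq2 called 6 members lower (Mki67, Ccnb2, Aurka, Plk1, Cenpf and Ube2c), the fit without a filter on low counts 4, the fit of the 6 mice alone 2 (Cenpe and Cenpf) and limma voom 0. For 30 μg/kg against vehicle, a term for the index set left only Wee1 called. That term rests on the 1 μg/kg group, the only one in both sets, that is on mouse 41, whose set was inferred from its number, against mice 43 and 44. The log2 fold changes were then -1.13 for Mki67 (adjusted p = 0.14), -1.18 for Cenpe and -1.09 for Cenpf, but -0.25 for Bub1 and Kif11 (edgeR's quasi-likelihood test).

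Other genes of the same processes were counted from lists that do not overlap with the members. Over all genes tested, 3.21% were called lower and 2.95% higher at 30 μg/kg, and 27% had an unadjusted p under 0.05; the counts that follow are to be read against these shares. Of 44 further mitotic genes 11 were called lower and 0 higher at 30 μg/kg, and their median was -0.46 (log2 fold change). The strongest by p were Ncapg, a condensin subunit (-1.10 ± 0.18 SE), Kif15, a spindle kinesin (-0.78 ± 0.16 SE), Sgo2a, a protector of cohesin (-1.01 ± 0.22 SE), and Smc4 and Smc2, the condensin core (-0.78 ± 0.18 SE and -0.81 ± 0.22 SE). Ncapg was also called in the comparison of 30 with 3 μg/kg (-0.80 ± 0.18 SE, adjusted p = 0.0385, edgeR's quasi-likelihood test). Of 34 further replication genes 0 were called by edgeR at 30 μg/kg, 4 had an unadjusted p under 0.05, and the median was -0.13. Over the dose series, however, 10 of these 34 had a falling slope and 0 a rising one. Of the 44 further mitotic genes 33 had a falling slope and 1 a rising one. Among all genes 11.6% had a falling and 11.8% a rising slope. Of 26 further entry and checkpoint genes that were tested 3 were called lower, namely E2f2, an activating E2F (-1.20 ± 0.25 SE), and the CDK4 and CDK6 inhibitors Cdkn2b (-0.63 ± 0.20 SE) and Cdkn2c (-0.62 ± 0.20 SE). Of 17 p53 targets other than Cdkn1a, Plk2 was called higher (0.84 ± 0.15 SE) and Bbc3 lower (-0.98 ± 0.29 SE), and the median was 0.05.

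The log2 fold changes of the mitotic members varied with exon length. Across the 20 mitotic members, Spearman's rho between exon length and log2 fold change at 30 μg/kg was -0.62, a description over genes of the same libraries. The 10 shorter ones had a median log2 fold change of -0.31 and the 10 longer ones -0.67. Over all 16411 genes with a known length the same rho was 0.01, and it was -0.12 over the replication members, whose 11 shorter ones had a median of 0.05 and whose 10 longer ones -0.13. The longest 3 of these, Pole, Rrm1 and Pola1, had log2 fold changes of -0.20, -0.11 and -0.67. With offsets for exon length, an alternative added once the values were known, 8 members were called, the 7 above and Pola1.

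**Figure D5:**
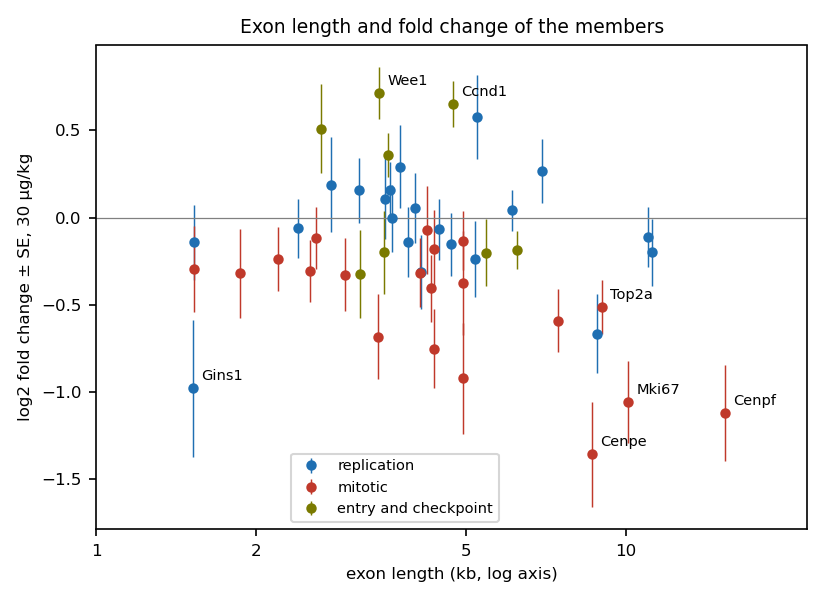
Log2 fold change ± SE at 30 μg/kg against vehicle (y axis) of the 49 members by exon length in kb (x axis, log scale), coloured by role. Cenpf, Mki67, Cenpe and Top2a, which are long mitotic members, lie among the lowest, whereas of the longest replication members Rrm1 and Pole (11 and 11.2 kb) lie at -0.11 and -0.20 and Pola1 (8.81 kb) at -0.67.

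In a tissue scraping, fewer dividing cells and less RNA per dividing cell cannot be told apart, so markers of other cells are given beside the members. Of 10 crypt base and stem cell genes 3 were called lower at 30 μg/kg: Lgr5, the receptor that marks crypt base stem cells (-1.40 ± 0.19 SE log2), Axin2, a Wnt target (-0.69 ± 0.14 SE), and Sox9, a crypt transcription factor (-0.69 ± 0.15 SE). Rnf43, a Wnt feedback regulator of the same list, was at 62.7 to 64.3 CPM in vehicle-treated mice and 70.6 to 76.6 CPM at 30 μg/kg, below the fold threshold (0.22 ± 0.07 SE log2), and its slope over dose was called as rising, whereas 5 of the 10 had a falling slope (Axin2, Sox9, Lgr5, Smoc2 and Ascl2), against 11.6% of all genes. The median of the list was -0.15 at 30 μg/kg. Its summed level was 528 to 546 CPM in vehicle-treated mice and 387 to 486 CPM at 30 μg/kg. Lgr5 was also lower at 30 than at 3 μg/kg (-1.27 ± 0.19 SE, adjusted p = 0.000649, edgeR's quasi-likelihood test). Of 9 epithelial genes 0 were called by edgeR at 30 μg/kg and 3 had an unadjusted p under 0.05, 5 had a rising slope over dose (Vil1, Krt19, Cldn7, Epcam and Krt8, against 11.8% of all genes), and the list summed to 8090 to 8900 CPM in vehicle-treated mice and 8450 to 10600 CPM at 30 μg/kg. Of 10 genes of differentiated colonocytes 1 was called, Ms4a12, which was lower (-1.55 ± 0.38 SE), against 3.21% of all genes called lower. Of these 10, 6 had positive log2 fold changes, and the median was 0.07. Their called slopes over dose were rising for Krt20 and Cdhr5 and falling for Ms4a12. The part of crypt base cells in the values of the mitotic members was not tested.

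Germinal centre B cells, which divide fast in gut lymphoid follicles, were also followed. Of 6 of their genes that could be tested 3 were called lower at 30 μg/kg, Rgs13 (-2.32 ± 0.42 SE log2), Bcl6 (-0.81 ± 0.19 SE) and Mybl1 (-1.17 ± 0.37 SE), and the list summed to 21.5 to 29.4 CPM in vehicle-treated mice and 9.95 to 14 CPM at 30 μg/kg. Of 10 genes of B and T lymphocytes 0 were called by edgeR, with 2 at an unadjusted p under 0.05, and they summed to 32.5 to 36.3 CPM in vehicle-treated mice and 21.5 to 27.9 CPM at 30 μg/kg. Of 10 genes of smooth muscle and stroma 1 was called, Dcn, which was higher, but 7 had an unadjusted p under 0.05, all 10 had positive log2 fold changes with a median of 2.19, and the list summed to 137 to 169 CPM in vehicle-treated mice and 161 to 783 CPM at 30 μg/kg. With the mean of that list as a covariate, Mki67, Cenpe, Ccnd1 and Wee1 were called at 30 μg/kg, and the log2 fold changes of the 3 no longer called were -1.003 for Cenpf, -0.77 for Bub1 and -0.63 for Kif11.

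Of 16 clock genes 15 were called at 30 μg/kg, 11 higher and 4 lower, 14 already at 3 μg/kg, and 0 at 30 against 3 μg/kg by edgeR, where 2 had an unadjusted p under 0.05. The largest rise was that of Dbp (4.93 ± 0.84 SE log2). The clock score was between -2.72 and -2.47 in the vehicle-treated mice, -1.22 to -0.42 at 0.3 μg/kg, 1.7 to 2.01 at 3 μg/kg and 1.53 to 2.19 at 30 μg/kg. At 1 μg/kg it was 2 in mouse 41, of the first index set, and 0.90 and 1.71 in mice 43 and 44, of the second. With this score in the model (an alternative added once the values were known), 6 members were called at 30 μg/kg: Mki67, Cenpe and Cenpf lower (log2 fold changes -2.09, -2.64 and -2.55) and Ccnd1, Pcna and Cdc6 higher. Bub1 and Kif11 were not called, with larger differences than without the score (-1.28, adjusted p = 0.0895, and -1.13, adjusted p = 0.0587, edgeR's quasi-likelihood test). Wee1 was then not called (log2 fold change 0.50, adjusted p = 0.338, edgeR's quasi-likelihood test). The score did not overlap between vehicle and 30 μg/kg, so this fit corrects by differences within groups. These were largest at 0.01 μg/kg, where mouse 14 had 1.45 against -2.82 and -2.1. Mouse 14 also had the highest Mki67 of all mice (317 CPM). Its replication mean was 3.63, against 4.14 and 4.12 in its group. How far these calls rest on mouse 14 was not tested.

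Across the 27 mice, Mki67 was set against 6 genes in log2 CPM, with permutation tests and Benjamini-Hochberg adjustment over the 6 relations, of which 5 are given. Mki67 went with Top2a (Pearson r = 0.811, adjusted permutation p = 3e-05, and Spearman rho = 0.833, adjusted permutation p = 6e-05), with r = 0.787 without the 2 mice farthest from the median of Top2a. Within the index sets r was 0.697 (16 mice, permutation p = 0.00281) and 0.646 (11 mice, permutation p = 0.0309). Mki67 also went with Lgr5 (r = 0.758, adjusted permutation p = 3e-05, and rho = 0.674, adjusted permutation p = 0.00057), with r = 0.622 without the 2 farthest mice, 0.37 in the first set (permutation p = 0.158) and 0.823 in the second (permutation p = 0.00188). No relation with Mcm2 was detectable (r = 0.0643, adjusted permutation p = 0.9, and rho = 0.133, adjusted permutation p = 0.607), and r was -0.017 without the 2 farthest mice, 0.269 in the first set and -0.567 in the second (permutation p = 0.0706).

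Mki67 and Ccnd1 went in opposite directions over all mice (r = -0.535, adjusted permutation p = 0.00582, and rho = -0.424, adjusted permutation p = 0.0431), with r = -0.339 without the 2 farthest mice and -0.628 in the second set (permutation p = 0.0383), but 0.05 in the first (permutation p = 0.854). For Cdkn1a r was -0.58 (adjusted permutation p = 0.00292) and rho -0.579 (adjusted permutation p = 0.00356), with r = -0.478 without the 2 farthest mice, and the relation did not pass within either set (r = -0.269, permutation p = 0.316, and r = -0.257, permutation p = 0.446). The relations over all mice include the difference between doses, and so do those within an index set, since each set holds mice of several doses.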

How the data were processed

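RNA from colonic epithelium scrapings of 27 male mice was sequenced. The authors deposited raw counts, whole numbers of reads per gene for each mouse separately and not normalized. The submitters' processing notes name FastQC 0.11.3, Trimmomatic 0.33, TopHat2 2.1.0, SAMtools 1.2.0, HTSeq 0.6.1, DESeq and the build GRCm38, with no roles given; annotation and use of strand are not given in the sources used here. Closing lines of each table that stand for no gene entered neither library sizes nor tests: reads on no feature were 29.1 to 33.3% of each table and reads without a unique alignment 30.7 to 37.1%, so members with near-identical copies may be undercounted.

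Of 46078 gene rows, 45143 matched a symbol. In R 4.3.3, filterByExpr of edgeR 4.0.16 (minimum count 10) kept 16496 genes; after TMM scaling, glmQLFit was run on all 9 groups together, and each dose against vehicle, 30 against 3 μg/kg and the slope over dose rank were taken with glmQLFTest. P-values were Benjamini-Hochberg adjusted over all genes tested. Standard errors were obtained by dividing the log2 fold change by the root of its F statistic, and 95% intervals are 1.96 standard errors either way. Log2 CPM used a prior count of 2. With 3 mice against 3, an exact permutation test of 1 gene cannot give a p below 0.1, so none was used. Relations across mice used 100000 permutations, two-sided; 1 of the 6 is not reported here. Replicate libraries were compared, and each of the 27 pairs differed by more than counting noise (chi-square per degree of freedom at least 5.32). Alternatives were RLE scaling, DESeq2 1.42.0, limma 3.58.1 (voom, posterior probability), no count filter, the compared groups alone, each mouse left out, an index set term, the adjusted p alone and log10 dose. The count steps were tested on simulated data. Index sets were read from the barcodes in the library names; 5 of the 16 barcodes occur once, and their mice were placed by their numbers.

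The members and the lists were chosen with earlier results of these data known. Named members were 11 set by symbol, those called at any dose, and the 3 replication and 3 mitotic members with the largest change, 18 in all; other genes are named only as members of the lists called in a comparison or slope, or as the defining marker of a cell type or exposure. Of the members not under this rule, Ttk, Birc5, Plk1, Ube2c, Cdc20, Rrm1, Pole and those listed by their calls or non-overlapping groups were named after their values were seen.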

Additional observations from a re-analysis of the deposited data

How the results depend on the processing

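The 7 members called at 30 μg/kg numbered 7 to 10 with RLE scaling, no count filter, the compared groups alone, an adjusted p alone or DESeq2. An index set term, which rests on mouse 41 (its set inferred from its number) against mice 43 and 44, left 1 (Wee1) and limma voom's posterior probability 2 (Ccnd1 and Wee1), and the smooth muscle and stroma covariate, added after the data were seen, left 4. Leaving out 1 mouse gave 4 to 7 calls, with 4 without vehicle mouse 4. At 10 μg/kg the compared groups alone gave 1 call in place of 0. For 30 against 3 μg/kg, in place of 0, no count filter gave 4, the compared groups alone 2 and DESeq2 6, and leaving out 1 mouse gave 0 to 1 (Aurka, without mouse 66). The 23 slopes fell to 0 with an index set term, to 2 from vehicle to 3 μg/kg and to 0 with the clock score, also added after the data were seen, and were 21 to 26 without 1 mouse. Of the named called slopes, those of Wee1 and Gins1 were steeper with the index set term (0.073 and -0.154) and the others less steep (among them -0.104 for Mki67 and Cenpe, -0.024 for Cdk1 and 0.023 for Cdkn1a). With the clock score those of Mki67, Cenpe, Cenpf, Gins1 and Ccnd1 were steeper (-0.153, -0.183, -0.194, -0.154 and 0.091), and those of Pola1, E2f1, Top2a, Cdk1, Cdkn1a, Wee1, Bub1 and Kif11 less steep (-0.057, -0.028, -0.050, -0.053, 0.041, 0.049, -0.082 and -0.070). The cause of these shifts was not tested.

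Directions turned only for named members that were not called in the comparison concerned. With the index set term, the log2 fold changes of 30 μg/kg were 0.86 for Ccnb1, 0.45 for Cdk1 and 0.26 for E2f1, and the slopes were 0.035 for Mcm2, 0.050 for Ccnb1 and -0.019 for Cdc6. With the clock score they were -2.09 for Mki67 (still lower), 0.96 for Pcna (adjusted p = 0.0245, edgeR) and 0.54 for E2f1, and the slopes were 0.048 for Pcna, 0.069 for Mcm2 and 0.046 for Mcm5. Within groups that score differed most for mouse 14, whose weight in these values was not tested. Without 1 mouse, Ccnb1 at 30 μg/kg ran from -0.33 to 0.061 and Mcm5 from -0.086 to 0.15. Relations of Mki67 that turned or no longer passed were those with Mcm2 (-0.017 without the 2 farthest mice, -0.567 in the second index set), Ccnd1 (0.05 in the first set), Cdkn1a (-0.269 and -0.257 within the sets) and Lgr5 (0.37 in the first set). No paired analysis was possible because the labels number the 27 mice without repeating a number between groups. Depth limits Gins1 (7 to 30 counts per mouse).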
